A study of Mus musculus with 40 samples.

Results

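The 36 genes described here encode aminoacyl-tRNA synthetases, the enzymes that join each amino acid to its tRNA. They were taken from a fixed list of names, 20 for enzymes that work mainly in the cytosol and 16, with names ending in 2, for enzymes of the mitochondrion. All 36 were found by symbol among the 22865 named genes of the expression table, and where a gene had several transcripts the one with the highest mean RNA level was kept. The cells were macrophages of the peritoneal cavity, drawn there by thioglycollate broth, harvested 4 days after its injection and plated overnight, from mice of the inbred strains C57BL6/J and BALBc/J. They received fresh medium alone (no treatment) or medium with 100 ng/ml Kdo2-lipid A (KLA), a defined bacterial lipid that activates Toll-like receptor 4. Polyadenylated RNA was sequenced (RNA-Seq) without treatment and after 1 hr and 4 hr of KLA, and RNA being made by engaged polymerases (GRO-Seq) without treatment and after 1 hr of KLA. Each strain, treatment and assay has 1 library, 10 in all, so in the treatment comparisons the strains serve as the replicates. Nothing in the labels ties a library to an animal or culture of its own. The p-values therefore reflect how far these libraries scatter, and that scatter may be technical. In the GRO-Seq fits on tags per 10 M the scatter is pooled over genes of like level. A gene's own scatter does not enter its p-value there.

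Cytosolic and mitochondrial protein synthesis use separate sets of synthetases, and nearly all of them are encoded in the nucleus by separate genes. Several cytosolic enzymes sit together in a multi-synthetase complex held by scaffold proteins, and Eprs carries the glutamyl and prolyl activities in 1 chain. Gars and Kars serve both compartments from a shared gene, Farsa and Farsb encode the subunits of the cytosolic phenylalanyl enzyme, and mitochondrial glutamine tRNA is charged by an indirect route, so the glutamine enzyme has no mitochondrial counterpart. When tRNAs lack their amino acid, the kinase GCN2 and the transcription factor ATF4 raise many cytosolic synthetase genes, and Wars, the tryptophanyl enzyme, is known as an interferon-induced gene.

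RNA-Seq libraries held 17.0 to 20.3 M tags and GRO-Seq libraries 39.4 to 48.3 M, of which 88.7% to 90.6% and 7.39% to 9.83% lay in exons. A level is the number of tags in a gene's exons, scaled to 10 M (10000000) sequenced tags. All 36 members reached the minimum of 20 in at least 2 RNA-Seq libraries, and 35 did so in GRO-Seq. The exception was Ears2, the mitochondrial glutamyl enzyme, at 15.2, 10.3, 7.45 and 10.6. Changes are fitted log2 differences of the level plus 10, and a gene is called when its limma p, adjusted over all genes tested, is below 0.05 and its change is at least 1 on the log2 scale. All 8 macrophage markers stood at 20 or more in every RNA-Seq library. In both strains so did 4 of 5 mesothelial and fibroblast markers without treatment and after 1 hr. This minimum alone therefore does not settle the label.

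Per kilobase of transcript, the cytosolic genes were the more abundant class. The median of their mean RNA-Seq levels was 218 tags per 10 M and kilobase, against 29.4 for the 15 mitochondrial genes and 99.1 for the 8383 genes that passed the minimum in both assays. The highest was Nars, the asparaginyl enzyme, with a mean of 524 and a range over 6 libraries of 416 to 608. Rars, the arginyl enzyme, followed with 518 and a range of 339.9 to 708, so the ranges of these neighbours overlapped widely. Next came Wars, with a mean of 394 and a range of 238 to 677. The lowest cytosolic gene was Iars, the isoleucyl enzyme, at 34.6 with a range of 24.7 to 44.0.

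Among mitochondrial genes the order by the same measure was led by Iars2, the isoleucyl enzyme, at a mean of 130.4 with a range of 60.4 to 179. Fars2, the phenylalanyl enzyme, had 92.6 with a range of 49.8 to 128, and Yars2, the tyrosyl enzyme, 71.8 with a range of 58.3 to 79.6. These ranges overlapped too. The lowest of all 36 was Vars2, the valyl enzyme, at 9.19 with a range of 2.23 to 17.0. Iars2 thus stood above its cytosolic partner Iars in RNA per kilobase.

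**Figure D1:**
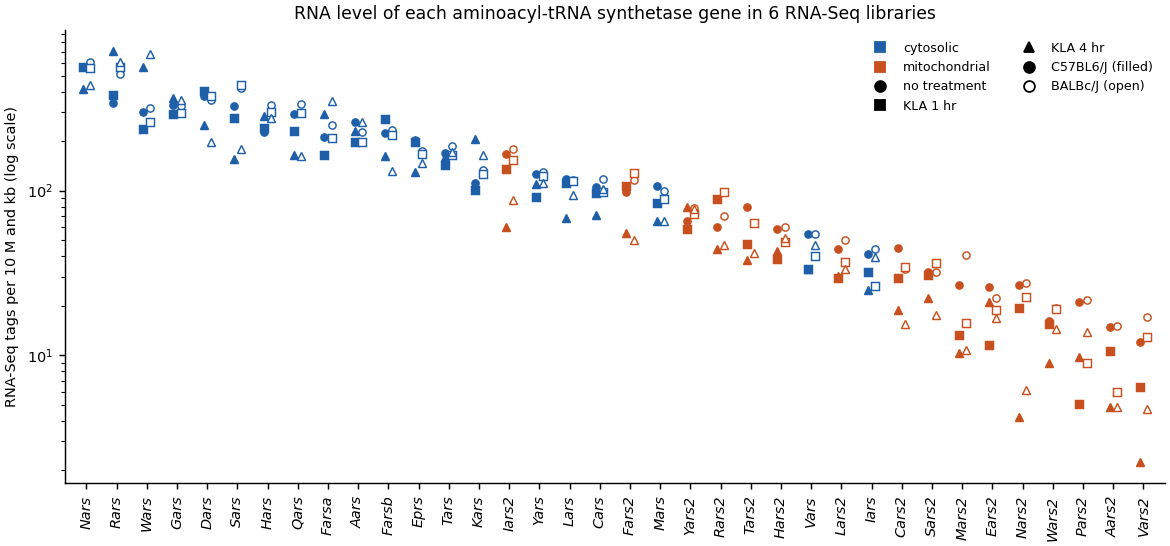
RNA-Seq level of each of the 36 synthetase genes, in tags per 10 M and kilobase on a log axis, with 1 point per library and genes ordered by their mean. Cytosolic genes (blue) fill the upper end from Nars and Rars down, mitochondrial genes (orange) the lower end down to Vars2, and Iars2 is the highest mitochondrial gene.

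In nascent RNA the classes lay closer. The GRO-Seq medians per kilobase were 24.2 for cytosolic and 12.9 for mitochondrial genes, beside 20.6 for all genes. The ratio of GRO-Seq to RNA-Seq level without treatment, each level plus 10, had a median of 0.148 in C57BL6/J and 0.114 in BALBc/J for cytosolic genes. For mitochondrial genes it was 0.412 and 0.402, and for all genes 0.243 and 0.218. By these medians cytosolic synthetases carried more mature RNA per nascent tag than the typical gene in these libraries, and mitochondrial ones less. Single members crossed that line. In C57BL6/J without treatment Yars, Cars, Mars, Iars, Vars and Lars (0.267 to 0.420) lay above the median of all genes, and Iars2 (0.215) below it. The added 10 weighs most on low genes. This is a description over genes, with no test.

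Some cytosolic members carry near their start the core of an amino acid response element, the sequence that ATF4 binds with a partner. The core was searched as TGATGNAA on both strands in RefSeq promoters of the GRCm38.p6 build, which reach from 250 bases before the annotated start to 50 after it. The table held 28 promoters of 27 members, 13 cytosolic and 14 mitochondrial. Cars, Hars, Lars, Nars, Rars, Vars, Wars, Hars2 and Pars2 had no promoter there and were not searched. The core was found in 5 members, Aars, Gars, Iars, Tars and Yars (the alanyl, glycyl, isoleucyl, threonyl and tyrosyl enzymes), all of them cytosolic. That is 17.9% of the 28 member promoters, against 3.97% of all 32851 promoters. The search fixed every letter of the core except N, so the cores could differ only there. The windows of 4 of them are printed, 30 bases each on the gene's strand. The core or its reverse complement is in capitals, and positions are counted from the start as 0.
Gars, chr6:55037960-55037989, plus strand, core at -30 to -23: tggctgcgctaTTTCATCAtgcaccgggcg
Iars, chr13:49682126-49682155, plus strand, core at 7 to 14: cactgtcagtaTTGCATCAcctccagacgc
Tars, chr15:11399655-11399684, minus strand, core at -15 to -8: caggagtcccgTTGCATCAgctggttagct
Yars, chr4:129189895-129189924, plus strand, core at 3 to 10: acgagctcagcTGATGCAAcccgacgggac

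The cores of Iars, Tars and Yars read the same on 1 strand or the other, and that of Gars is another variant. In Gars, Iars and Tars the reverse complement lies on the gene's strand, and in Yars the forward form does. Of the other motifs searched on both strands, the E-box CACGTG was in 5 members (Aars, Ears2, Farsb, Iars and Tars; 7.15% of all promoters). The STAT motif TTCNNNGAA was in 3 (Aars, Kars and Nars2; 8.30%), the interferon-stimulated element core GAAANNGAA in Qars alone (8.56%), and the kB core GGANTTTCC in none (1.25%). Wars had no promoter in this set, so it was not searched for any of these motifs. A match is a description of these letters, and none of the 5 genes with TGATGNAA was called in any comparison below.

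After 4 hr of KLA, 11 of the 16 mitochondrial genes had fallen and 4 of the 20 cytosolic genes had risen by the adjusted p. Of 36 members, 6 were called lower and 0 higher, where 21.3% of the 10692 genes tested were called lower and 8.10% higher. The members' share is no larger than that of all genes, so the count itself is not a result about synthetases. The 6 were Nars2, Vars2, Mars2, Iars2 and Aars2 of the 16 mitochondrial genes and Sars of the 20 cytosolic genes. The median change was -0.50 over all members, -0.39 over the cytosolic and -0.75 over the mitochondrial genes, while the median of all genes tested was -0.47 with quartiles of -0.90 and -0.03. Counting adjusted p alone, at any size, 18 members were lower and 4 higher, beside 44.6% and 11.8% of all genes. By class that was 7 lower and 4 higher of the 20 cytosolic, and 11 lower and 0 higher of the 16 mitochondrial genes. The same untreated libraries serve the 1 hr and the 4 hr comparison.

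Because the median gene fell on this scale, changes relative to it are also given, from libraries centred on their medians. On that scale 3 members were called higher (Wars, Rars and Kars) and 2 lower (Nars2 and Vars2), beside 11.7% and 9.74% of all genes. The class medians then were 0.04 for cytosolic and -0.32 for mitochondrial genes. The members that passed the adjusted p downwards relative to the median gene were the 6 called ones, so each lower member named below without a call did not pass on that scale. The summed level of the 10 interferon-response markers rose over the same time from 4319.8 to 4764 without treatment to 419356 to 429935 tags per 10 M after 4 hr. Its part in the shift of the median gene was not tested.

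**Figure D2:**
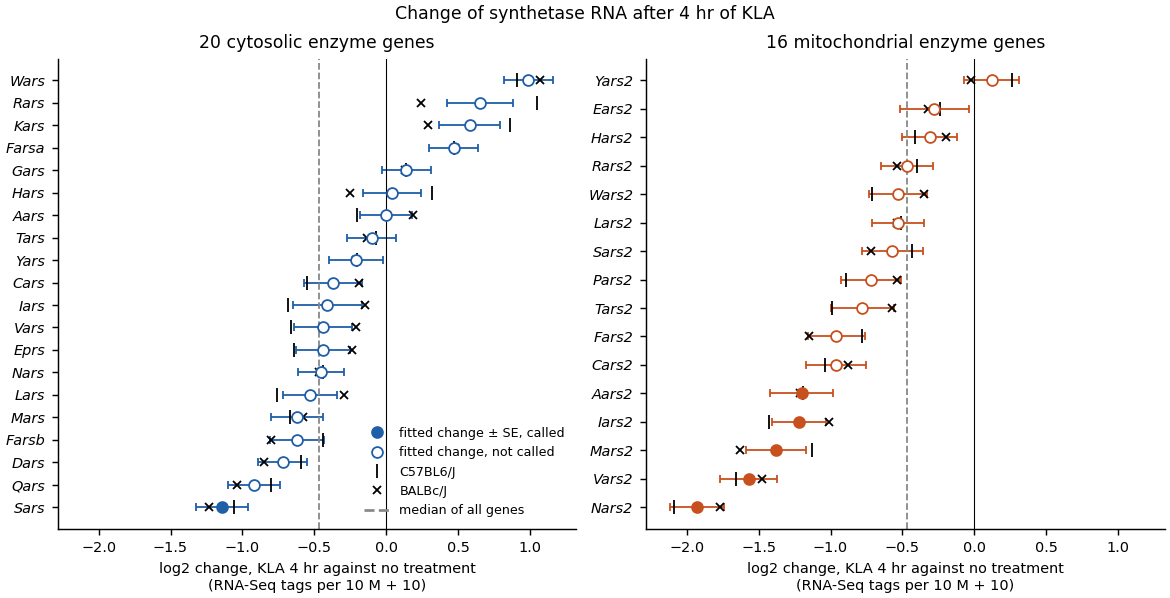
Fitted log2 change of each member after 4 hr of KLA against no treatment, with its standard error, the change within each strain as black marks, and the median of all genes as a dashed line. Filled circles are the 6 called members, from Aars2 at -1.20 to Nars2 at -1.93 among the mitochondrial genes and Sars at -1.14 among the cytosolic ones, and Wars is at the top with 0.99.

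Nars2, the mitochondrial asparaginyl enzyme (chr7:104100036-104213267, plus strand, mm9), had RNA levels of 100.1 in C57BL6/J and 102 in BALBc/J without treatment, 72.4 and 85.3 after 1 hr and 15.8 and 23.0 after 4 hr. Both 4 hr libraries lay below every other library. It fell by 1.93 ± 0.19 on the log2 scale (adjusted p = 1.33e-04), to 0.26 of its level, and by 1.50 relative to the median gene. The cytosolic partner Nars was at 1496 and 1612, then 1496 and 1469.9, then 1101 and 1160.0, with a change of -0.45 that passed the adjusted p.

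Vars2 (chr17:35792579-35804537, minus strand) went from 53.0 and 75.4 without treatment to 28.2 and 56.7 after 1 hr and 9.87 and 20.7 after 4 hr. The groups without treatment and after 4 hr did not overlap, and within each time BALBc/J was higher. It fell by 1.57 ± 0.20 (adjusted p = 4.17e-04) and by 1.14 relative to the median gene. With a pseudocount of 50, which weighs low genes less, the change was no longer called. Its cytosolic partner Vars had 229 and 228, 140.5 and 168, and 141 and 196, and did not pass at 4 hr (-0.44).

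Mars2, the mitochondrial methionyl enzyme, had 76.6 and 117 without treatment, 38.3 and 45.4 after 1 hr and 29.6 and 31.1 after 4 hr. Its drop was already present at 1 hr in both strains. It fell by 1.38 ± 0.21 by 4 hr (adjusted p = 0.00102), a call lost with a pseudocount of 50 and relative to the median gene (-0.95). The cytosolic partner Mars went from 311 and 292 through 248 and 263 to 191 and 193 (-0.62, passing the adjusted p).

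Iars2, the most abundant mitochondrial member, had 591 and 634 without treatment, 478 and 543 after 1 hr and 214 and 309 after 4 hr. Each later time lay below the earlier one in both strains. It fell by 1.22 ± 0.19 (adjusted p = 0.00116), and by 0.79 relative to the median gene, where the call was lost. Its partner Iars was at 179.6 and 193, then 140.5 and 116, then 109 and 174, and did not pass (-0.41).

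Aars2, the mitochondrial alanyl enzyme, had 50.1 and 50.5 without treatment, 35.6 and 20.0 after 1 hr and 16.3 and 16.1 after 4 hr. The strains were within 1 tag per 10 M of each other at the first and last time and apart at 1 hr. It fell by 1.20 ± 0.22 (adjusted p = 0.00288), with the call lost at a pseudocount of 50 and relative to the median gene (-0.77). Aars, its partner and the cytosolic alanyl enzyme, was at 1287 and 1111, then 965 and 962, then 1120.2 and 1271, with a fitted 4 hr change of -0.00.

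Sars, the cytosolic seryl enzyme, was the only cytosolic member called at 4 hr. It had 1205 and 1567 without treatment, 1024 and 1624 after 1 hr and 573 and 664 after 4 hr. The levels after 4 hr lay below all earlier ones, and the 1 hr levels straddled the untreated ones. It fell by 1.14 ± 0.18 (adjusted p = 0.00136), and by 0.71 relative to the median gene, where it was not called. Without the BALBc/J library of 4 hr the change was -0.99, just under the size for a call. Its mitochondrial partner Sars2 went from 60.7 and 61.4 through 58.5 and 69.7 to 42.4 and 33.4 (-0.57, passing the adjusted p), so here the cytosolic gene fell further than its partner.

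Wars (chr12:110098239-110132384, minus strand) moved the other way. Its RNA levels were 849 and 905 without treatment, 674 and 743 after 1 hr and 1607 and 1916 after 4 hr. Both 4 hr libraries were above all others and both 1 hr libraries below the untreated ones. Its 4 hr change of 0.99 ± 0.17 (adjusted p = 0.00168), a ratio of 1.99, passed the adjusted p and just missed the size for a call. Without the C57BL6/J library of no treatment or of 4 hr it was 1.05 or 1.06, past that size. Relative to the median gene the change was 1.42 (adjusted p = 1.32e-04) and called. Its mitochondrial partner Wars2 had 70.7 and 84.3, 68.1 and 83.2, and 39.5 and 63.8, and did not pass (-0.53).

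The other cytosolic genes that rose by the adjusted p at 4 hr were Rars (0.65 ± 0.23, adjusted p = 0.0434), Kars, the lysyl enzyme (0.58 ± 0.21, adjusted p = 0.0491), and Farsa (0.47 ± 0.17, adjusted p = 0.0465). Rars had 724 and 1084 without treatment, 815 and 1207 after 1 hr and 1509 and 1284 after 4 hr. The BALBc/J levels at 1 hr and 4 hr differed little, and most of the rise was in C57BL6/J. Kars had 243 and 292, 220.3 and 273, and 451 and 358, again with the higher 4 hr level in C57BL6/J. Relative to the median gene Rars and Kars were called, at 1.07 and 1.00. Farsa had 386 and 457, 300.1 and 383, and 537 and 639.5, while the other subunit gene, Farsb, went from 478 and 499 through 578 and 468 to 348 and 282 (-0.62, passing the adjusted p). The subunit genes of this enzyme thus moved in opposite directions, both past the adjusted p, though relative to the median gene Farsb did not pass (-0.19). Without the C57BL6/J library of no treatment or of 4 hr, Rars (0.44 and 0.25) and Kars (0.44 and 0.28) no longer passed, and Farsa did not without either untreated library (0.50 and 0.44).

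Cytosolic genes that fell by the adjusted p without reaching the size for a call were, besides Farsb, Qars at -0.92, Dars at -0.72, Mars at -0.62, Lars at -0.53 and Nars at -0.45 (the glutaminyl, aspartyl, methionyl, leucyl and asparaginyl enzymes). These 6 did not pass without either untreated library. Those that did not pass had changes of 0.14 for Gars, 0.04 for Hars, -0.00 for Aars, -0.10 for Tars, -0.21 for Yars, -0.37 for Cars, -0.41 for Iars, -0.44 for Eprs and -0.44 for Vars. Among mitochondrial genes Cars2 and Fars2 fell by 0.96 each, Tars2 by 0.78, Pars2 by 0.72, Sars2 by 0.57 and Lars2 by 0.53. Without the untreated C57BL6/J library Cars2 (-0.78), Tars2 (-0.50) and Pars2 (-0.50) no longer passed, and Fars2 (-0.87) did not without the untreated BALBc/J library. Sars2 and Lars2 did not pass without either of the untreated libraries (-0.60 and -0.55 for Sars2, -0.51 and -0.55 for Lars2), Sars2 also not without the BALBc/J library of 4 hr (-0.38) and Lars2 not without either library of 1 hr (-0.53 each). The 5 that did not pass were Yars2 at 0.12, Ears2 at -0.28, Hars2 at -0.31, Rars2 at -0.47 and Wars2 at -0.53. Yars2 was the single mitochondrial gene with a fitted change above 0.

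Partners were set side by side by symbol, for the 13 cytosolic genes whose symbol followed by 2 names a mitochondrial member. Eprs, Farsa and Farsb also share an amino acid with mitochondrial members (Ears2 and Pars2, and Fars2) but were not paired here. In 9 of the 13 the cytosolic gene gained on its partner by 4 hr in both strains. The median gain was 0.75 in C57BL6/J and 0.78 in BALBc/J on the log2 scale. Wars gained 1.62 and 1.43, Nars 1.66 and 1.30 and Aars 0.99 and 1.40. The other 4 pairs were Sars (-0.63 and -0.51), Yars (-0.46 and -0.19), Lars (-0.25 and 0.25) and Hars (0.73 and -0.05).

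The classes were also summed per kilobase. Gars and Kars, which serve both compartments, are counted in the cytosolic sum only, here and in the ratio below. The cytosolic sum was 4489.7 in C57BL6/J and 4977 in BALBc/J without treatment, 4151 and 4668 after 1 hr and 4468 and 4575 after 4 hr. The mitochondrial sum was 792 and 845, then 648 and 777, then 454 and 492. The cytosolic sum at 4 hr was thus close to its untreated level in C57BL6/J and somewhat lower in BALBc/J, while the mitochondrial sum dropped in both strains.

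The ratio of the cytosolic to the mitochondrial sum was 5.67 and 5.89 without treatment, 6.41 and 6.01 after 1 hr and 9.85 and 9.30 after 4 hr. The 4 hr ratios lay above all others. The mean went from 5.78 to 9.57, a gain of 1.66 times, with 1.74 in C57BL6/J and 1.58 in BALBc/J. An exact two-sided permutation test of 2 against 2 libraries gave p = 0.333, the smallest this design can give. This ratio is within a library, so it does not depend on how libraries are scaled. In GRO-Seq it was 2.39 and 2.01 without treatment and 2.37 and 2.25 after 1 hr, and these groups overlapped. Together the members took 0.145% to 0.181% of exon tags in the RNA-Seq libraries.

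**Figure D3:**
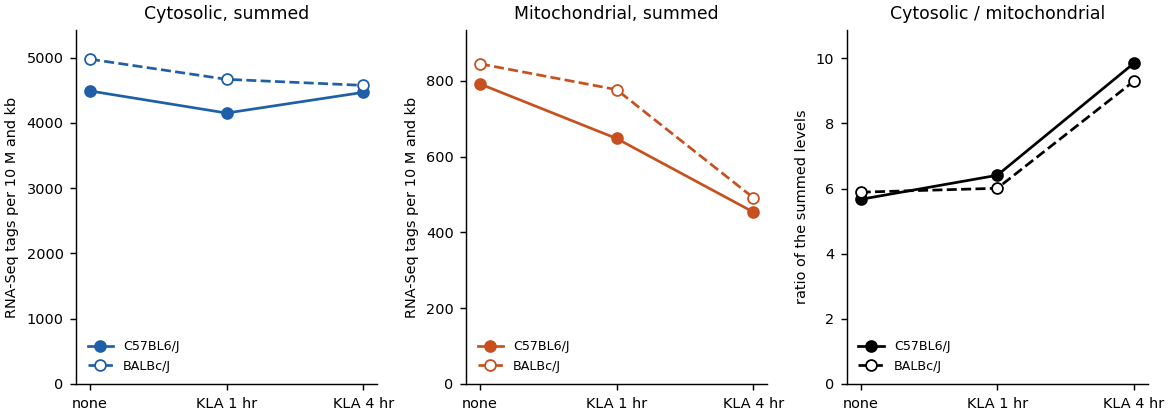
Summed RNA-Seq level per kilobase of the 20 cytosolic and the 16 mitochondrial members, and their ratio, in each strain (1 library per point). The mitochondrial sum drops from 792 and 845 to 454 and 492 by 4 hr, and the ratio goes from 5.67 and 5.89 to 9.85 and 9.30.

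After 1 hr of KLA, mature RNA of the synthetases had moved little. Of 36 members 2 were called lower, both mitochondrial, and 0 higher, beside 1.43% and 1.82% of all genes. The medians were -0.17 for cytosolic and -0.34 for mitochondrial genes, and -0.21 for all genes. At an unadjusted p below 0.05 there were 7 members, beside 23.1% of all genes.

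The 2 were Mars2, described above, which fell by 1.02 ± 0.21 (adjusted p = 0.0361), and Pars2, the mitochondrial prolyl enzyme. Pars2 had 64.2 and 66.6 without treatment, 15.4 and 27.5 after 1 hr and 30.1 and 42.6 after 4 hr. Its lowest levels were at 1 hr, with the 4 hr levels between those and the untreated ones in both strains. It fell by 1.29 ± 0.21 at 1 hr (adjusted p = 0.0130) and was still called relative to the median gene (-1.07). Of 14 alternatives with a test, Mars2 was called in 7 and Pars2 in 10. Without the untreated C57BL6/J library neither passed the adjusted p (changes of -1.23 and -1.07), and Mars2 was also lost without the BALBc/J library of no treatment (-0.81) or of 1 hr (-0.97). Eprs, which charges the same amino acid in the cytosol, was at 989 and 845 without treatment, 954 and 814 after 1 hr and 631 and 716 after 4 hr.

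Between 1 hr and 4 hr, 1 member was called higher and 4 lower, beside 8.67% and 13.5% of all genes. The gene that rose was Wars, by 1.30 ± 0.17 (adjusted p = 5.65e-04), a ratio of 2.46, and it was called under all 14 alternatives. Those that fell were Nars2 (-1.60 ± 0.19, adjusted p = 4.36e-04), Fars2 (-1.09 ± 0.20, adjusted p = 0.00303), Sars (-1.05 ± 0.18, adjusted p = 0.00261) and Vars2 (-1.03 ± 0.20, adjusted p = 0.00425). Fars2 had 209 and 247 without treatment, 228 and 273 after 1 hr and 118 and 106 after 4 hr, so its drop lay between 1 hr and 4 hr. Nars2 was called under 13 of the 14 alternatives, Sars under 11, and Fars2 and Vars2 under 10. Without the BALBc/J library of 1 hr, Sars (-0.87), Fars2 (-0.99) and Vars2 (-0.90) missed the size for a call, and without that of 4 hr Sars (-0.90) and Fars2 (-0.90) did. By the adjusted p alone Farsa (0.77) and Kars (0.69) also rose, and Iars2 (-0.96), Rars2 (-0.97) and Dars (-0.80) were among those that fell. This comparison shares its 4 hr libraries with the one against no treatment.

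**Figure D4:**
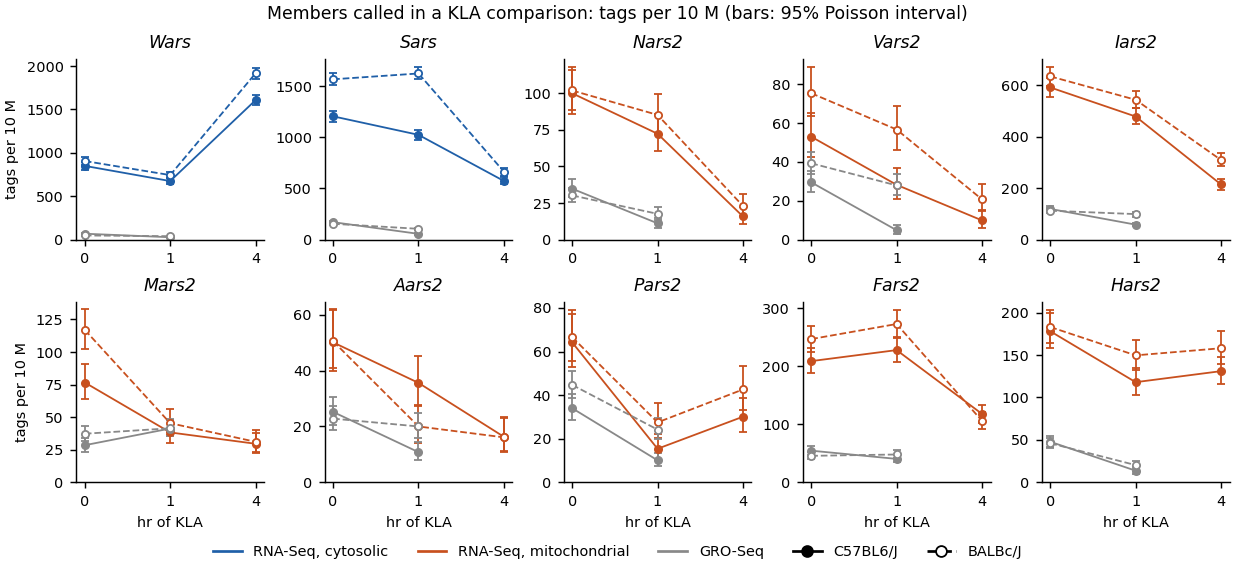
Tags per 10 M in each library for the 10 members called in a KLA comparison, against hours of KLA, for RNA-Seq (blue cytosolic, orange mitochondrial) and GRO-Seq (grey), with bars for the 95% Poisson interval of the count. Wars is the gene with its highest RNA at 4 hr (1607 and 1916), and Pars2 has its lowest at 1 hr (15.4 and 27.5).

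Nascent RNA after 1 hr of KLA gave 1 call among the 35 members tested, Hars2, the mitochondrial histidyl enzyme, which was lower, and 0 higher, beside 15.5% and 4.31% of 9110 genes. By the adjusted p alone 6 members were lower, beside 23.0% of all genes, and 0 higher. The medians were -0.25 for the 20 cytosolic and -0.44 for the 15 mitochondrial genes, and -0.34 for all genes. The median of all genes itself was -0.58 in C57BL6/J and -0.10 in BALBc/J.

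Hars2 had GRO-Seq levels of 47.8 in C57BL6/J and 46.0 in BALBc/J without treatment and 13.7 and 20.3 after KLA. The groups did not overlap, and it fell by 1.09 ± 0.32 (adjusted p = 0.00431). Relative to the median gene it fell by 0.73 (adjusted p = 3.84e-05), which is too small for a call. The start of Hars2 lies 74 bp from that of Hars on the opposite strand, and the strand rule used in tag counting is not stated here, so counts of the genes near the shared start cannot be told apart. Hars had 58.2 and 54.6 without treatment and 53.1 and 74.9 after KLA, with no drop of its own. In RNA-Seq Hars2 was at 178 and 183, then 118 and 149.6, then 131 and 158, while Hars was at 452 and 658, 476 and 599, and 568 and 553.

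The other 5 that passed were Sars (-0.98), Vars2 (-0.90), Pars2 (-0.90), Yars (-0.87) and Nars2 (-0.82). Sars had GRO-Seq levels of 170.0 and 154 without treatment and 55.8 and 105 after KLA, and Vars2 had 29.5 and 39.3, then 4.81 and 27.9. Nars2 had 34.8 and 30.2, then 11.1 and 17.6, and Pars2 34.0 and 44.7, then 10.1 and 24.2. Yars had 129 and 169.5, then 64.6 and 90.0. For each of these 5 genes the lowest level was in the treated C57BL6/J library, and the untreated and treated groups did not overlap. That library also had the lowest share of tags in exons, 7.39% beside 8.98% to 9.83% in the other GRO-Seq libraries. Its median gene had fallen as well, by 0.58 from the untreated C57BL6/J library. Sars, Nars2 and Vars2 are also among the 6 called lower in mature RNA at 4 hr.

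Other members called in mature RNA did not pass in nascent RNA. Mars2 had GRO-Seq levels of 28.5 and 37.3 without treatment and 41.3 and 41.5 after KLA, with a change of 0.27, while its mature RNA was called lower in the same hour. Iars2 had 119 and 112, then 57.9 and 98.9 (-0.55), and Aars2 25.2 and 22.8, then 10.8 and 20.0 (-0.44). Fars2 had 54.6 and 45.7, then 40.4 and 48.0 (-0.15). Wars, which later rose in mature RNA, had 67.3 and 47.0 without treatment and 26.7 and 38.8 after KLA (-0.65, adjusted p = 0.169). GRO-Seq was not made at 4 hr in the libraries used here.

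Relative to the median gene, nascent RNA gave 6 members higher and 8 lower by the adjusted p, beside 26.6% and 26.7% of all genes, and 0 called. The higher ones included Yars2 (0.65) and Mars2 (0.62) of the mitochondrial and Hars (0.49), Aars (0.48) and Kars (0.48) of the cytosolic class.

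The strains did not differ in any member by the test. No member was called or passed the adjusted p in RNA-Seq or in GRO-Seq, where 3.70% and 0.911% of all genes were called in either direction. At an unadjusted p below 0.05 there were 2 members in RNA-Seq and 1 in GRO-Seq by limma, beside 20.4% and 7.38% of all genes. The differences furthest from 0, C57BL6/J minus BALBc/J, were those of Vars2, at -0.62 ± 0.16 in RNA-Seq (adjusted p = 0.0541) and -0.84 ± 0.29 in GRO-Seq (adjusted p = 0.175). Vars2 was lower in C57BL6/J in all 5 pairs of libraries of the same treatment and assay. Sars had -0.42 ± 0.15 in RNA-Seq (adjusted p = 0.151). With GRO-Seq libraries centred on their medians, 5 members passed the adjusted p, beside 13.6% of all genes, without reaching the size for a call: Eprs, Iars, Lars and Lars2 higher in C57BL6/J and Vars2 lower. At 4 hr 28 of 36 members were lower than without treatment in both strains, 5 higher in both and 3 opposite, beside 67.4%, 18.3% and 14.2% of all genes. Relative to the median gene they were 14, 12 and 10, beside 41.3%, 35.5% and 23.2%.

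Genes of the same pathway were read from lists at 4 hr in RNA-Seq. Of the 3 scaffold proteins of the multi-synthetase complex, Eef1e1 rose by 0.95 ± 0.21 (adjusted p = 0.00649), Aimp1 fell by 0.55 ± 0.18 (adjusted p = 0.0334) and Aimp2 did not pass (-0.25). Eef1e1 was at 214 and 251 without treatment and 538 and 391 after 4 hr, and relative to the median gene it was called, at 1.38.

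Of 23 tested genes of the amino acid response, 3 were called higher and 6 lower, with a median of -0.40. Of all genes 8.10% were called higher and 21.3% lower, with a median of -0.47, and the counts of this list and the next ones stand beside those shares. Atf4 itself was at 4484 and 5318 without treatment and 3131 and 3539 after 4 hr (-0.55, passing the adjusted p). Asns, the asparagine synthetase and a classic target, rose by 0.62 ± 0.19 (adjusted p = 0.0246), from 107 and 161 to 157 and 271. Ddit3 and Trib3, which encode the stress factor CHOP and a pseudokinase, fell by 1.68 and 2.20. The members called higher were the stress protein gene Nupr1 (3.28), the cystine transporter gene Slc7a11 (2.68) and the folate enzyme gene Mthfd2 (1.33).

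Of 6 genes that sense or act on uncharged tRNA and the kinases of the same target, 1 was called higher and 2 lower. They were Eif2ak2, the RNA-activated kinase PKR (3.32), Impact, an inhibitor of GCN2 activation (-2.65), and Eif2ak3, the kinase PERK (-2.11). Eif2ak4, the gene of GCN2, fell by 0.93 without being called. None of 4 tested cytosolic elongation factor genes was called, and 2 were lower by the adjusted p. Of 13 tested partners of mitochondrial translation, 1 was called lower, Gatc, a subunit of the amidotransferase that completes mitochondrial glutaminyl-tRNA (-1.58), and 6 were lower by the adjusted p. The mitochondrial elongation factor gene Tufm stayed below the minimum, at 10.6 and 16.1 without treatment and 12.3 and 12.7 after 4 hr.

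Of 4 synthetase-related genes 2 were called lower, Tarsl2, a relative of Tars (-1.87), and Prorsd1, a relative of the bacterial proline-editing domain (-1.43). Of 13 genes of RNA polymerase III, which makes tRNAs, 2 were called lower, the subunit gene Polr3g (-1.71) and its repressor gene Maf1 (-1.33). Of 7 genes of the Myc network 3 were called lower, the Myc antagonist genes Mnt (-4.15), Mxd4 (-2.53) and Mxi1 (-1.99). Mxd1 and Max of the same list went the other way in both strains. Mxd1 had 236 and 222 without treatment and 351 and 554 after 4 hr, and Max 938 and 1092, then 1719 and 1894. Myc was at 210.3 and 214 without treatment, 1531 and 831 after 1 hr and 216 and 187 after 4 hr. It rose by 2.36 ± 0.24 at 1 hr (adjusted p = 0.00118) and was near its untreated level at 4 hr (-0.07). All 10 interferon markers were called higher at 4 hr, with a median of 5.97.

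Binding and chromatin at member starts came from 20 peak or region lists, called by the authors on 1 sample each. They cover the macrophage factors PU.1 and C/EBPa and the histone marks H3K4me2 (promoters and enhancers) and H3K27Ac (active elements), each in both strains without treatment and after 1 hr of KLA. The NF-kB subunit p65 was mapped after KLA only, with 2 lists per strain. A start counted as bound when a peak or region overlapped the 1000 bp on either side of it, in mm9. H3K4me2 was listed at all 36 members in all 4 lists, beside 93.5% of the 10692 genes. H3K27Ac was listed in all 4 at 33 members (91.7%, beside 78.9%), all 20 cytosolic and 13 mitochondrial. The 3 others were Aars2, Cars2 and Nars2, each listed in some but not all.

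PU.1 was listed in all 4 lists at 29 members, 16 cytosolic and 13 mitochondrial (80.6%, beside 66.0% of all genes). C/EBPa was listed in all 4 at 20 members (55.6%, beside 38.3%), of which 14 were cytosolic and 6 mitochondrial. The untreated BALBc/J list alone held 18 cytosolic and 14 mitochondrial members. The other C/EBPa lists held 15 and 8 (C57BL6/J without treatment), 16 and 9 (C57BL6/J after KLA) and 15 and 9 (BALBc/J after KLA). p65 was listed in all 4 at 20 members (55.6%, beside 39.6%), 11 cytosolic and 9 mitochondrial. Both C57BL6/J p65 lists held 29 members and both BALBc/J lists 21, beside 57.1% and 41.5% of all genes. The file headers name the C57BL6/J input as the control of the BALBc/J p65 lists too. These shares count listed peaks and have no test. Counting only peaks at or above the median signal of their list, the share of members was 36.1% for H3K27Ac and 16.7% for p65, below the 47.0% and 21.0% of all genes.

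**Figure D5:**
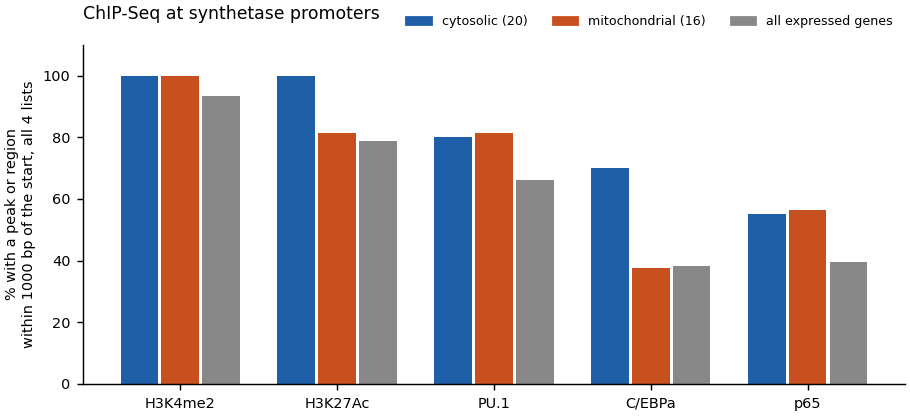
Share of cytosolic members, mitochondrial members and all genes passing the RNA-Seq minimum with a listed peak or region within 1000 bp of the start in all 4 lists of a factor or mark. By this count C/EBPa shows the widest gap between the classes, 14 of 20 cytosolic against 6 of 16 mitochondrial genes. In the untreated BALBc/J list alone it was 18 of 20 against 14 of 16.

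At Wars, p65 was listed in all 4 lists inside the gene, with centres 657 to 778 bp downstream of the start. The authors' peak tags per 10 M were 35.5 and 30.8 in C57BL6/J and 42.0 and 23.4 in BALBc/J. A C/EBPa peak lay 621 to 647 bp downstream in all 4 lists, with 84.2 tags without treatment and 128 after KLA in C57BL6/J and 91.2 and 138 in BALBc/J. It was higher after KLA in both strains. PU.1 was listed 8 to 59 bp upstream of the start and again downstream, in all 4 lists.

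At Vars2, p65 was listed 57 to 93 bp downstream of the start, with 77.9 and 90.0 tags in C57BL6/J and 68.0 and 50.0 in BALBc/J, and no PU.1 list held a peak there. A p65 peak thus stood at the start of a gene that fell as well as inside one that rose. At Nars2, H3K27Ac had 44.1 tags in C57BL6/J and 104 in BALBc/J without treatment. After KLA it was not listed in C57BL6/J and had 23.1 in BALBc/J. C/EBPa at the Nars2 start had 52.1 and 66.6 tags without treatment and 34.3 and 38.4 after KLA. Sars had a C/EBPa peak 1039 to 1055 bp downstream of its start, with 134 and 182 tags without treatment and 124 and 173 after KLA.

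Markers of other cells were low beside those of macrophages, whose sum was 77691 to 81934 tags per 10 M without treatment and 60832 to 69514 after 4 hr. The sum of T and NK cell markers went from 6.47 to 28.1 without treatment to 193 to 243 after 4 hr, nearly all of it Lck, while 3 of the 5 genes were at 0 in both 4 hr libraries. B cell markers summed to 45.9 to 70.8 and then 36.5 to 46.1, neutrophil markers to 7.80 to 14.7 and then 2.47 to 6.34, and mast cell markers to 50.6 to 62.5 and then 16.3 to 25.3. Mesothelial and fibroblast markers summed to 1298 to 1546 and then 643 to 1676, a range that overlapped. In BALBc/J without treatment Pdgfra (366), Col1a1 (528) and Col3a1 (539.9) were each above the macrophage marker Mertk (307). In C57BL6/J Mertk (1088) was above each of them. The part of these cells in the member values was not tested. In bulk samples fewer cells of a type and less RNA per cell cannot be told apart.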

How the data were processed

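The deposited expression table gave log2 values, made by the authors with HOMER from exon tags per 10 M plus 1 and a random part below 1 tag, per the file headers and the values. Reads were aligned with Bowtie 0.12.7 to mm9, per the submitters' processing notes. Whole tags were recovered from each value and set to tags per 10 M. Of 29028 rows, 21 without a symbol stayed out. Genes with at least 20 tags per 10 M in at least 2 libraries were fitted as log2 of the level plus 10 with limma 3.58.1 in R 4.3.3, with treatment and strain as additive terms, each assay alone, and Benjamini-Hochberg adjustment over all genes (10692 in RNA-Seq, 9110 in GRO-Seq). The fit was tested on simulated data. The deposited peak lists gave signal as tags per 10 M at called peaks, which the authors called with HOMER over an input (per the file headers). Intervals are 95% Poisson intervals and cover counting error only. Every member is given, with values in every library for those called in any comparison, their partners and the most and least abundant. Members and lists were chosen with earlier results of these data known. Of 40 samples, inputs and lists from other mice were not analysed here. The promoter sequence of 1 member is not reported here.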

Additional observations from a re-analysis of the deposited data

Results flagged for a closer look

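With 1 library per strain and treatment the difference between the strains' responses could not be tested, and 4 responses are given because the strains moved in opposite directions, both on tags per 10 M and relative to the median gene. In RNA-Seq after 1 hr of KLA, Sars changed by -0.23 in C57BL6/J and 0.05 in BALBc/J on the log2 scale, a difference of -0.28. Cars2, the mitochondrial cysteinyl enzyme, changed by -0.51 and 0.05, a difference of -0.56, from 82.5 to 54.8 tags per 10 M in C57BL6/J and from 61.4 to 63.7 in BALBc/J. In GRO-Seq after 1 hr, Cars, its cytosolic partner, changed by -0.61 and 0.49, a difference of -1.09, from 124 to 78.3 and from 72.7 to 106. Nars changed by -0.77 and 0.21 in GRO-Seq, a difference of -0.98, from 143 to 79.3 and from 109 to 128. Relative to the median gene the responses were -0.05 and 0.30 for Sars, -0.33 and 0.30 for Cars2, -0.03 and 0.61 for Cars, and -0.19 and 0.33 for Nars. The C57BL6/J responses of Sars and Cars were thus near 0 on that scale. The differences were then -0.36, -0.63, -0.63 and -0.52, larger in RNA-Seq and smaller in GRO-Seq. The median gene in GRO-Seq changed by -0.58 in C57BL6/J and -0.10 in BALBc/J. None of these differences was tested. The same pattern was met by 9.93% of genes by RNA-Seq and 5.35% by GRO-Seq at 1 hr, and by 4.69% of all genes and 0 members in RNA-Seq at 4 hr.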

How the results depend on the processing

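No called change of a member turned in direction under an alternative. Of the members called at 4 hr against no treatment, Nars2 was called under all 14 alternatives (-2.29 to -1.13), Iars2 and Vars2 under 13, and Sars, Mars2 and Aars2 under 12. Wars was called at 4 hr under 4 of 14. With a pseudocount of 50 the members called were 0 for RNA-Seq at 1 hr (2 in the report), 3 at 4 hr (6), 2 between the times (5) and 0 in GRO-Seq (1). With libraries centred on their medians they were 1 at 1 hr, 2 between the times and 0 in GRO-Seq. No filter on low values gave 0 at 1 hr, and so did a fit with no strain term. GRO-Seq gave 5 with a pseudocount of 2, and 0 with the stricter filter, which left Hars2 untested. Leaving out 1 library at a time gave 0 to 3 at 1 hr, 6 to 10 at 4 hr (10 without the C57BL6/J library of 4 hr), 3 to 6 between the times and 0 to 0 between the strains; in GRO-Seq it leaves no test. The gain of the cytosolic over the mitochondrial sum was 1.61 to 1.71 without 1 library, and 1.41 without Wars and Rars, an alternative chosen after seeing the data. Counting only peaks at or above the median signal, members bound in all 4 lists went from 29 to 16 for PU.1 (44.4%, beside 42.5% of all genes), 33 to 13 for H3K27Ac (36.1%, beside 47.0%), 20 to 6 for p65 (16.7%, beside 21.0%) and 20 to 14 for C/EBPa (38.9%, beside 19.4%). For H3K27Ac and p65 the members' share was then below that of all genes. With a window of 5000 bp the members' shares were 86.1% for PU.1, 58.3% for C/EBPa and 63.9% for p65. Those of all genes were 81.6%, 57.1% and 58.7%, so the gaps were small. With a window of 250 bp they were 77.8%, 47.2% and 38.9% of members, beside 46.8%, 23.5% and 24.4% of all genes. No paired analysis was possible because the replicate numbers, carried by the p65 lists alone, enter no test; the fits hold strain as a term, so treatments are compared within strain. Depth limits the low genes most: the 9.87 tags per 10 M of Vars2 in C57BL6/J after 4 hr have a 95% Poisson interval of 6.03 to 15.2.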
